A study of Rattus norvegicus with 31 samples.

Results

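The 7 genes described here encode brakes and stress responders that cells switch on after stimulation: Dusp1, Dusp6, Errfi1, Ppp1r15a, Gadd45g, Crem and Ccn1. They were chosen by symbol, as genes of MAP kinase and EGF receptor feedback, growth arrest, cAMP-dependent repression and the extracellular matrix, out of 13334 genes named on the array. They were carried by 8 of the 22519 probes used, 1 each except for Crem with 2 probes, and all 8 probes were bright enough to be tested. RNA had been measured in rat striata on Illumina RatRef-12 BeadChips, with 1 array for each of 31 samples. The study asked which striatal genes respond to the loss of dopamine, and to methamphetamine (METH) where dopamine had been lost.

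All animals were male Sprague-Dawley rats. Hemiparkinsonian rats had received 6-hydroxydopamine (6-OHDA), which destroys dopamine neurons, in the left medial forebrain bundle (5 µl at 2 µg/µl), which left the opposite striatum with its dopamine input. They had been tested for rotation under apomorphine and METH, saline groups included, before a last injection of saline or METH (2.5 mg/kg), and tissue was taken 2 h after it. The non-lesioned side gave the groups SNL after saline (5 arrays) and MNL after METH (6 arrays), and the lesioned side gave SL after saline (6 arrays) and ML after METH (6 arrays). Control rats without 6-OHDA gave SC after saline (4 arrays) and MC after METH (4 arrays). Arrays are named by group and striatum number. Both sides of hemiparkinsonian rats were taken, but which samples are the left and right striatum of the same animal is not given in the labels. Comparisons of the sides therefore leave this pairing out, and p-values measure the spread between samples, not between animals. Every group enters more than 1 of the comparisons below, so that these share arrays: the MNL arrays, for example, are set against SNL and against ML.

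Dusp1 and Dusp6 are phosphatases that remove phosphate from MAP kinases: Dusp1 acts mainly on the stress kinases p38 and JNK as well as ERK, and Dusp6 on ERK. Errfi1 (Mig6) binds the EGF receptor and blocks its kinase. Ppp1r15a (Gadd34) brings protein phosphatase to eIF2alpha and so ends the block of translation in the integrated stress response, and Gadd45g, a growth arrest and DNA damage gene, activates stress kinases upstream of p38 and JNK. Crem encodes activators and repressors of cAMP-responsive genes, among them ICER, an inducible repressor made from an internal promoter. Ccn1 (Cyr61) is secreted into the matrix and binds integrins. In the striatum, dopamine acting at D1 receptors raises cAMP and activates ERK in spiny neurons, and genes of this kind follow within hours of a psychostimulant.

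Promoter sequence is shown for the genes where the cAMP response element (CRE, TGACGTCA) was found and for Dusp6, where it was not, since D1 receptors raise cAMP in spiny neurons. Windows from 250 bases before to 50 bases after each start, from RefSeq on GRCr8, were searched on both strands, and all 7 genes had a window, Crem 3 of them. Capitals mark the CRE and its core (TGACG, or CGTCA on the other strand, so that each CRE holds 2 overlapping cores).
Dusp1, chr10:17184603-17184902 on the plus strand: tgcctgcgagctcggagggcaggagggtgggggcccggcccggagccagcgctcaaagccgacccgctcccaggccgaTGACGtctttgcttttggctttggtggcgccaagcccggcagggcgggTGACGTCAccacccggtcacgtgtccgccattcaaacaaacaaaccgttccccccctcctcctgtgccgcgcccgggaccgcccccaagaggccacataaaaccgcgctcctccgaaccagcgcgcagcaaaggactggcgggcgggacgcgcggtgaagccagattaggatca
Ppp1r15a, chr1:105139547-105139846 on the minus strand: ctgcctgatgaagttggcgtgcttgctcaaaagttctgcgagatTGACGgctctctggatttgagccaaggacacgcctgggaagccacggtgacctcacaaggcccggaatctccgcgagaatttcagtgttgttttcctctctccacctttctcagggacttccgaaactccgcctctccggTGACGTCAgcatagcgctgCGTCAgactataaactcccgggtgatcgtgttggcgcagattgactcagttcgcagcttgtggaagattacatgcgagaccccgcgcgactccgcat
Crem, the second window, chr17:58984547-58984846 on the plus strand: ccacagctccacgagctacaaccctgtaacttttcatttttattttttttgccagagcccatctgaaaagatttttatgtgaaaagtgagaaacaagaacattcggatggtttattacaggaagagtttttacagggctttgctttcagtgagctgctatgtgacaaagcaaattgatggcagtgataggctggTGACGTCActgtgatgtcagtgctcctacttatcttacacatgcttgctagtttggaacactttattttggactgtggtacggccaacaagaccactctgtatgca
Crem, the third window, chr17:58985240-58985539 on the plus strand: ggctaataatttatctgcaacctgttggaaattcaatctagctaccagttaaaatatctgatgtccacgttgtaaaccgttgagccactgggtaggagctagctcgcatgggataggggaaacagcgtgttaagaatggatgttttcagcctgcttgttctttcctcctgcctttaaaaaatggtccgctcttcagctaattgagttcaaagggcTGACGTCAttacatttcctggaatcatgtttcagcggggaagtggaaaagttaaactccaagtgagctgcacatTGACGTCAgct
Dusp6, chr7:35979354-35979653 on the plus strand: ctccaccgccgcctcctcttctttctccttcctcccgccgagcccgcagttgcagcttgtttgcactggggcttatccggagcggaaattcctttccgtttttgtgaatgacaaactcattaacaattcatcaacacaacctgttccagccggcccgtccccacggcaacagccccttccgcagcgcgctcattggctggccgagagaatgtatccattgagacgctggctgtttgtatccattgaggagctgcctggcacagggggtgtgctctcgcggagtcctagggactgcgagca
The CRE stood at bases -124 to -117 from the start of Dusp1 and at -66 to -59 in Ppp1r15a. Crem had it at -56 to -49 in the second window and at -35 to -28 and 40 to 47 in the third. Thus 3 of 7 genes had a CRE. Counted by window, 4 of their 9 windows held it, 2 of them those of Crem, against 1.83% of all 33465 windows. The core stood alone in Errfi1 (-56 to -52) and in Ccn1 (-67 to -63), so that 5 of 7 genes held it (7 of 9 windows, against 21.2% of all windows), and Dusp6 and Gadd45g held neither. An AP-1 motif (TGANTCA, in 7.33% of windows) was found in 1 gene, across the start of Ppp1r15a, and the EGR motifs (GCGTGGGCG or GCGGGGGCG, in 3.2%) and the CArG box (in 1.64%) in none of the 7 genes. These are matches of letters and not measured binding sites.

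Between 8042 and 9451 probes were detected on an array (detection p under 0.01), and the fit took the 9732 probes that were detected on 4 arrays or more. All 8 spiny neuron markers with a probe, were detected on every array. Tac1, the substance P gene of D1 neurons, had a log2 fold change of -1.38 in ML against MNL (limma, adjusted p = 0.00408). It was named after its values were seen, and was the 1 marker of these 8 that was called. Of the 8, 3 had positive log2 fold changes in ML against MNL, with a median of -0.11, and 1 was higher at an unadjusted p under 0.05 (limma). Tac1 therefore does not stand for the spiny neuron markers as a set. Summed choroid plexus markers reached 28720 on an array of SL, 19920 in ML and 16350 in SNL, against group medians of 4841 to 5897 (2 of 7 detected on every array). The columns of ML 22 and SL 32 stood 4 rows off their probes and were moved back, which raised their correlation with the median array from 0.213 and 0.216 to 0.985 and 0.986. SC 8a, SC 6 and SNL 19 were least like the median array (r of 0.971, 0.979 and 0.980). In bulk tissue, fewer cells of a type and less RNA per cell cannot be told apart.

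SC 6 and SNL 19 also stood apart in the signal of ribosomal protein genes, which touches several of the values below. Over 50 ribosomal protein probes, the median log2 intensity was 10.70 in SC 6, 10.49 in SNL 19 and 11.14 in SC 8a, and between 11.52 and 11.89 on all other arrays. With SC 6 and SNL 19 included, Gadd45g correlated with this signal over the 31 arrays (r = 0.792, and 0.811 within groups). Crem did less so (r = 0.564), and Errfi1 ran against it (r = -0.66, and -0.772 within groups). Dusp1 (r = -0.0999) and Dusp6 (r = -0.0831) were near 0. SC 6 and SNL 19 lie far from the rest and held the lowest Gadd45g values (5.48 and 5.41), so they weigh heavily in these correlations. No r was computed without them. SC 6 and SNL 19 are in saline groups, so each METH comparison on dopamine-innervated striata is also given without both, an alternative chosen after seeing the data. The part of RNA quality in these values was not tested.

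**Figure D1:**
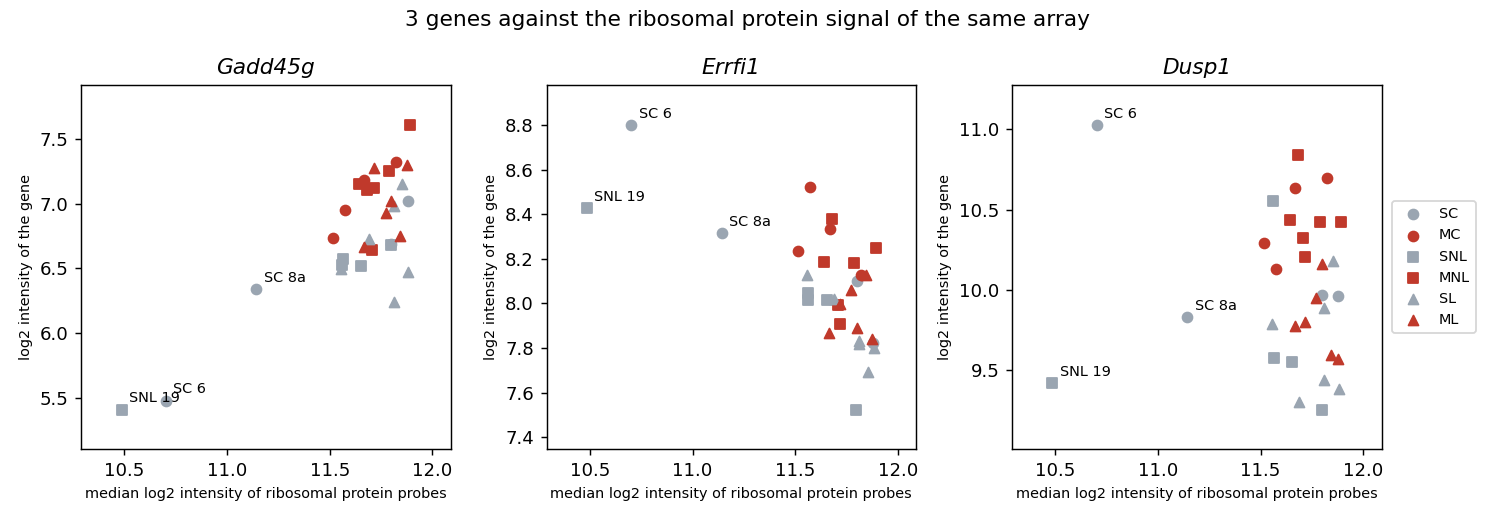
Log2 intensity of Gadd45g, Errfi1 and Dusp1 (vertical axes) against the median log2 intensity of 50 ribosomal protein probes on the same array (horizontal axes); each point is 1 of 31 arrays, grey after saline and red after METH, with circles for control rats, squares for the non-lesioned and triangles for the lesioned side. SNL 19 and SC 6 lie far to the left, with the lowest Gadd45g values (5.41 and 5.48) and high Errfi1 values (8.43 and 8.80).

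Of the 7 genes, Dusp1 (ILMN_1367486), Dusp6 (ILMN_1362834), Errfi1 (ILMN_1366212), Gadd45g (ILMN_1367453) and the main Crem probe (ILMN_1376694) were detected on all 31 arrays. Ppp1r15a (ILMN_1369158) was detected on 28 and lay near the detection limit, with signals of 12.3 to 64.0 where the lowest detected signal of an array was 15.3 to 27.0. Ccn1 (ILMN_1372919) was detected on 12 arrays, 1 to 3 in each group, and its values are mostly those of background. The other Crem probe (ILMN_1375833) was detected on 6 arrays and on none of the SC and SNL arrays, so no fold is given for it against those groups. Which Crem transcripts either probe matches, ICER or full length, could not be worked out. The background correction adds an offset of 16 to each signal, which shrinks the differences of dim probes such as those of Ppp1r15a and Ccn1.

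**Figure D2:**
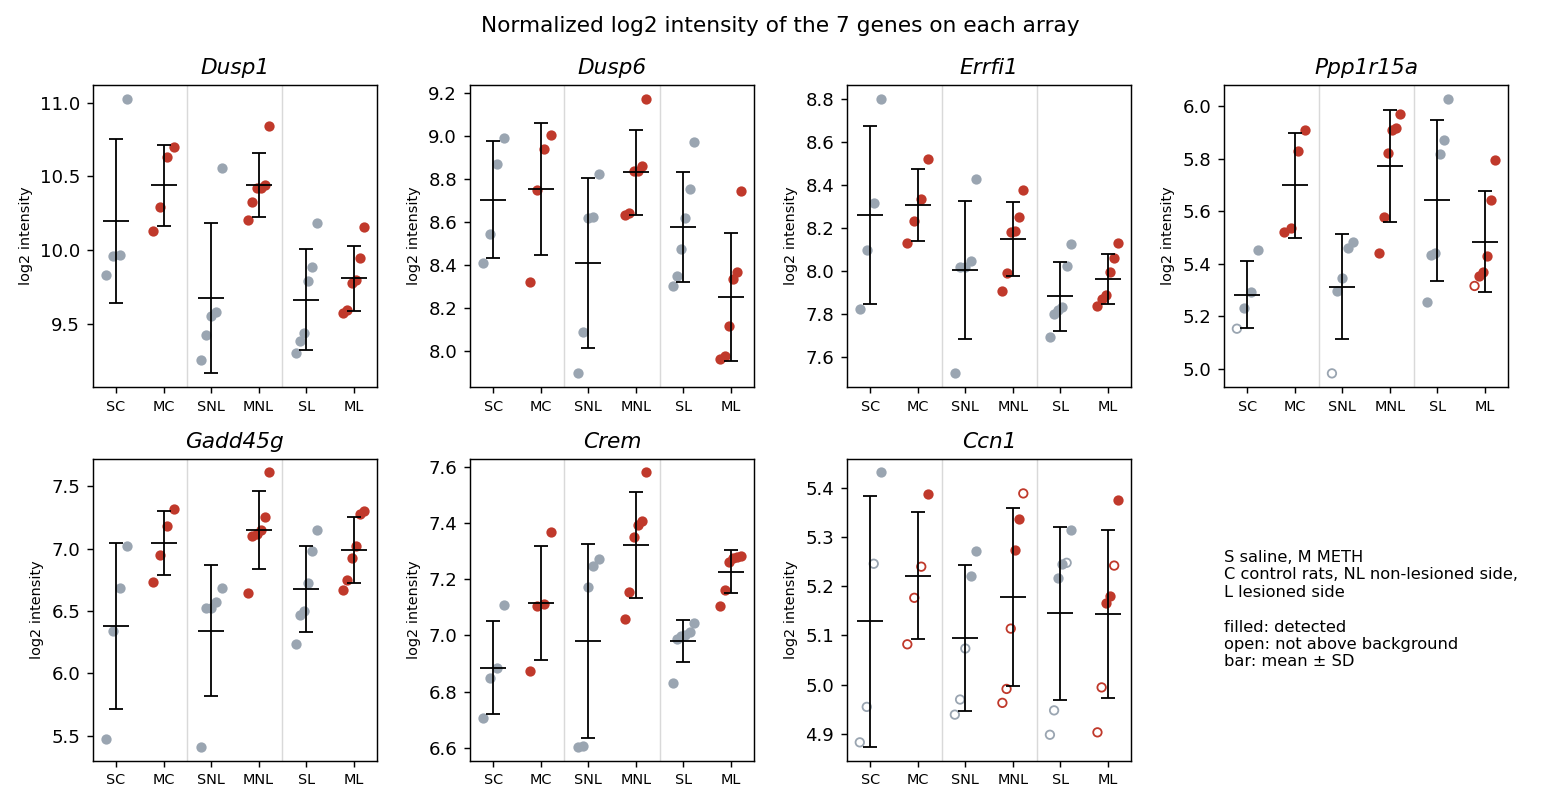
Normalized log2 intensity (vertical axes) of each of the 7 genes on every array, by group (horizontal axes: SC, MC, SNL, MNL, SL, ML); points are arrays, grey after saline and red after METH, filled where the probe was detected and open where it was not, and bars are the mean with 1 SD over the 4 to 6 arrays of a group. For Dusp1 the MNL arrays lie at 10.20 to 10.84 and the ML arrays at 9.57 to 10.16, without overlap, and single saline arrays (SC 6 at 11.03, SNL 27 at 10.56) stand high in theirs.

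On the non-lesioned side, METH against saline gave higher group means for all 7 genes (46.9% of all probes had a positive difference), with the largest estimates for Gadd45g and Dusp1. With Benjamini-Hochberg adjustment over the 9732 probes, 0 of 7 genes passed in limma, where 11 probes were called higher (0.113% of those tested) and 0 lower (0%). At an unadjusted p under 0.05, 5 of 7 genes were higher (Dusp1, Dusp6, Ppp1r15a, Gadd45g and Crem) against 2.67% of all probes, and the median log2 fold change was 0.42 over the 7 genes against -0.01 over all probes. The genes were chosen with these results known, so the count describes them and is no test of the list. The same holds for the counts and signs of the 7 genes in the comparisons below. A t-test at the thresholds of the study's methods (1.7-fold at p under 0.025, unadjusted) called 2 higher, Dusp1 and Gadd45g, against 24 of all probes (0.247%), and 0 after Benjamini-Hochberg adjustment. It was run here on median-scaled log2 signals of the 9732 probes, not with the study's software. Summed oligodendrocyte markers (7 of 7 detected on every array) had a median of 14670 in MNL (13800 to 16440) and 17810 in SNL (14110 to 20450), with overlapping ranges and 1 of 7 genes lower at an unadjusted p under 0.05. Choroid plexus markers summed to a median of 4841 in MNL (4114 to 6459) and 5552 in SNL (4087 to 16350), and 0 of the 5 tested had a positive log2 fold change. The part of either in these results was not tested.

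Dusp1, the MAP kinase phosphatase that acts most widely, had log2 intensities of 9.26, 9.42, 9.55, 9.58 and 10.56 in SNL. In MNL they ran from 10.20 over a median of 10.42 to 10.84. All MNL arrays lay above 4 of the 5 SNL arrays, and SNL 27 lay inside their range. The log2 fold change was 0.77 ± 0.21 (SE), or 1.71-fold (95% interval 0.35 to 1.19, limma, unadjusted p = 0.000806, adjusted p = 0.339). Without SNL 27 it was 0.99, with an adjusted p of 0.0152 (limma), so that 1 saline array decided this call. Over the alternatives with limma or adjustment the adjusted p ran from 0.0152 to 0.931.

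Dusp6, the ERK phosphatase, had values of 7.90, 8.09, 8.62, 8.62 and 8.83 in SNL, and from 8.63 over 8.84 to 9.17 in MNL. Here 4 of 6 MNL arrays lay above every SNL array, and 2 SNL arrays, 19 and 23, lay far below the others. This gave a log2 fold change of 0.42 ± 0.17 (adjusted p = 0.839, limma). Errfi1, the EGF receptor inhibitor, differed little: its means were 8.01 ± 0.32 (SD) in SNL and 8.15 ± 0.17 in MNL, and the 95% interval of the log2 difference ran from -0.14 to 0.43. No MNL array lay above the highest SNL array, SNL 19 at 8.43. Without SC 6 and SNL 19 the log2 difference of Errfi1 was 0.25 (adjusted p = 0.9997).

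Gadd45g, the growth arrest gene, had values of 5.41, 6.52, 6.52, 6.57 and 6.68 in SNL, and from 6.65 over 7.14 to 7.61 in MNL. MNL 29 alone reached down into the range of the SNL arrays, and SNL 19 lay far below the other SNL arrays. The log2 fold change was 0.81 ± 0.23, or 1.75-fold (unadjusted p = 0.00138, adjusted p = 0.489, limma). Without SC 6 and SNL 19 it was 0.57 (adjusted p = 0.797). Ppp1r15a, the eIF2alpha phosphatase subunit, had 4.98, 5.30, 5.34, 5.46 and 5.48 in SNL and from 5.44 over 5.86 to 5.97 in MNL, with 5 of 6 MNL arrays above every SNL array. Its log2 fold change was 0.46 ± 0.13 (unadjusted p = 0.00152, adjusted p = 0.507, limma), and 0.38 without the 2 arrays.

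Crem had values of 6.60, 6.61, 7.17, 7.25 and 7.27 in SNL and from 7.06 over 7.37 to 7.58 in MNL. The groups overlapped, with 4 of 6 MNL arrays above all of SNL. The difference was 0.34 ± 0.12 on the log2 scale (unadjusted p = 0.00662, adjusted p = 0.839, limma). Ccn1, which was at background on most of these arrays, gave 0.08 ± 0.11. Fos, the classical activity gene, passed in the same fit with a log2 fold change of 1.45 ± 0.19 (adjusted p = 9.345e-05, limma). Without SC 6 and SNL 19, 5 of 7 genes were again higher at an unadjusted p under 0.05 (1.97% of all probes), with Errfi1 in place of Dusp6. The estimates were then 0.71 for Dusp1, 0.34 for Dusp6, 0.25 for Crem and 0.05 for Ccn1, beside those given above for the other 3 genes.

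**Figure D3:**
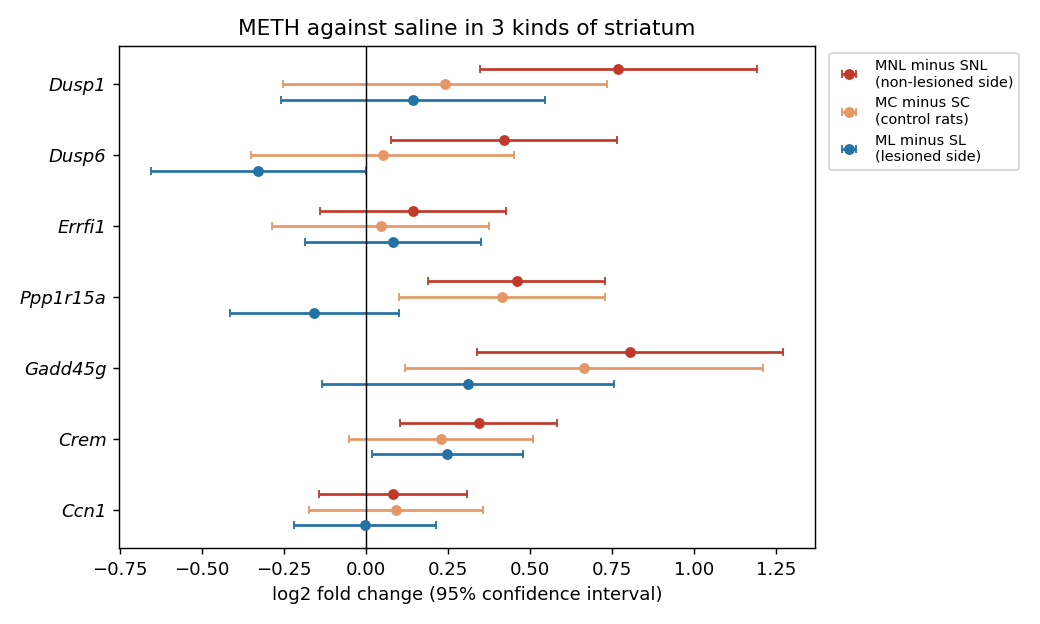
Log2 fold change after METH against saline (horizontal axis) for each of the 7 genes (vertical axis) in 3 kinds of striatum; points are the limma estimates from 4 to 6 arrays a group and bars their 95% confidence intervals, not corrected for the number of genes. On the non-lesioned side (dark red) the intervals of 5 genes lie above 0, while on the lesioned side (blue) Dusp6 and Ppp1r15a have estimates of -0.33 and -0.16.

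In control rats, METH against saline again gave higher means for all 7 genes (45.4% of all probes), with the largest estimates for Gadd45g and Ppp1r15a. None of the 7 genes passed (0 of 7, limma, where 1 probe was called higher, 0.0103%, and 0% lower), 2 were higher at an unadjusted p under 0.05 (3.63% of all probes), and the methods' t-test called 0 (0.175% of probes). Ppp1r15a had values of 5.15, 5.23, 5.29 and 5.45 in SC and 5.52, 5.54, 5.83 and 5.91 in MC. The groups did not overlap, which held for 0.945% of all probes in this direction, and held for the deposited log2 table but not with median scaling. Its log2 fold change was 0.42 ± 0.15 (unadjusted p = 0.0111, adjusted p = 0.769, limma).

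Gadd45g had values of 5.48, 6.34, 6.69 and 7.02 in SC and 6.73, 6.95, 7.18 and 7.32 in MC. Its log2 fold change of 0.66 ± 0.27 (adjusted p = 0.769) rested in part on SC 6, the lowest array, and was 0.36 without it (adjusted p = 0.996). For Dusp1 the same array was the highest, with values of 9.83, 9.96, 9.97 and 11.03 in SC and 10.13, 10.29, 10.63 and 10.70 in MC. SC 6 held the highest Dusp1 value of all 31 arrays, and every MC array lay above the other 3 SC arrays. On the log2 scale the difference was 0.24 ± 0.24 with SC 6 (adjusted p = 0.849, limma) and 0.52 without it (adjusted p = 0.996, limma). Without SC 8a it was 0.12. Crem gave 0.23 ± 0.14, Dusp6 0.05 ± 0.20 and Errfi1 0.05 ± 0.16, and the last 2 of these changed sign in some alternatives (-0.047 to 0.195 and -0.1 to 0.225). Without SC 6 and SNL 19 the estimates were 0.40 for Ppp1r15a, 0.17 for Crem, 0.15 for Dusp6, 0.23 for Errfi1 and 0.04 for Ccn1.

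The METH differences of SNL and MNL and of SC and MC used separate arrays, and their difference was tested. It passed for 0 of 7 genes (limma, 0% of probes, 0 at an unadjusted p under 0.05 against 0.74% of probes higher and 0.945% lower), with the largest estimate for Dusp1, 0.53 (95% interval -0.12 to 1.18). As the mean of both comparisons, METH in dopamine-innervated striata gave log2 fold changes of 0.74 ± 0.18 for Gadd45g (adjusted p = 0.072), 0.44 ± 0.10 for Ppp1r15a (adjusted p = 0.0562), 0.51 ± 0.16 for Dusp1 (adjusted p = 0.326) and 0.29 ± 0.09 for Crem (adjusted p = 0.326). No gene passed (0 of 7, limma, where 0.236% of probes were called higher and 0.0206% lower). All 7 estimates were positive against 45% of probes, and 4 genes were higher at an unadjusted p under 0.05 against 7.11% of probes. Leaving out a single array brought 1 gene past the threshold in 5 cases: Ppp1r15a without MNL 9 (adjusted p = 0.029) or MC 13 (0.0452), Gadd45g without MNL 29 (0.0444) or SC 16 (0.0265), and Dusp1 without SC 6 (0.0449). Without both SC 6 and SNL 19 the estimate of Gadd45g was 0.47 (adjusted p = 0.414), and those of Dusp1 and Ppp1r15a were 0.61 (adjusted p = 0.101) and 0.39 (adjusted p = 0.256). Crem was then at 0.21 and Errfi1 at 0.24, where it was at 0.09 with all arrays.

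On the lesioned side, METH against saline left the 7 genes without a common direction: 4 had higher and 3 lower means (49.8% of all probes higher). None passed (0 of 7, limma, where 0 of 9732 probes were called, 0%), and at an unadjusted p under 0.05 Crem was higher (0.986% of probes) and Dusp6 lower (0.915%). Leaving out 1 array in turn (12 fits) gave 0 to 1 higher and 0 to 1 lower at that threshold. The methods' t-test called 0 (0.113% of probes).

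Crem, measured without telling ICER from its other transcripts, was the gene of the 7 whose METH and saline arrays separated here. Its values ran from 6.83 over a median of 7.00 to 7.05 in SL and from 7.10 over 7.27 to 7.28 in ML. All 6 ML arrays lay above all 6 SL arrays, which held for 0.0617% of probes in this direction, and held as well with median scaling and in the deposited log2 table (5 ML arrays there). This gave a log2 fold change of 0.25 ± 0.11 (unadjusted p = 0.0346, adjusted p = 0.9999, limma), and 0.25 without ML 22 and SL 32, the arrays that were moved. The SD within these groups was 0.075 and 0.076, against 0.35 in SNL. Over the alternatives with limma or adjustment, a fit of ML and SL alone among them, the lowest adjusted p was 0.999. The other Crem probe, detected on 1 array of each group, gave 0.11 with overlapping groups.

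Dusp6 ran from 8.30 over 8.55 to 8.97 in SL and from 7.96 over 8.23 to 8.75 in ML, so that 3 ML arrays lay below every SL array. The log2 fold change was -0.33 ± 0.16 (unadjusted p = 0.0499, adjusted p = 0.9999, limma). Ppp1r15a gave -0.16 ± 0.13 and Dusp1 0.14 ± 0.20, with overlapping groups. Gadd45g gave 0.31 ± 0.22 and Errfi1 0.08 ± 0.13. Fos gave 0.56 ± 0.18 (unadjusted p = 0.00415, adjusted p = 0.9999, limma).

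The difference between the METH response of the lesioned and of the non-lesioned side was tested directly, as (ML minus SL) minus (MNL minus SNL). It was negative for all 7 genes, where 51.6% of all probes were positive, with a median of -0.49 against 0.0065, and passed for 0 of 7 (limma, 0 of 9732 probes called, 0%). At an unadjusted p under 0.05 it was lower for 3 genes against 0.935% of probes. Dusp6 gave -0.75 ± 0.23 (unadjusted p = 0.0031, adjusted p = 0.9997, limma). Ppp1r15a gave -0.62 ± 0.18 (unadjusted p = 0.002, adjusted p = 0.9997, limma) and Dusp1 -0.63 ± 0.29 (unadjusted p = 0.0363, adjusted p = 0.9997, limma). Ppp1r15a and Dusp6 ranked 11 and 16 of the 9732 probes by unadjusted p (limma). Because the genes were chosen with earlier results of these data known, signs and ranks describe them and are no test. The MNL and SNL arrays are also those compared above. For Crem the difference was -0.10 with a 95% interval of -0.43 to 0.24, and for Errfi1 -0.06 (-0.45 to 0.33). Gadd45g gave -0.49 (-1.14 to 0.15). Without SNL 19 and SC 6 the differences were -0.26 for Gadd45g, -0.0017 for Crem and -0.17 for Errfi1, and -0.67, -0.53 and -0.56 for Dusp6, Ppp1r15a and Dusp1. Of the markers tested, 5 of 5 of choroid plexus (median 0.47), 6 of 7 of oligodendrocytes (0.30) and 0 of 6 of microglia (-0.19) were positive. The part of these lists in the difference was not tested. Against the control rats, (ML minus SL) minus (MC minus SC) was lower at an unadjusted p under 0.05 for Ppp1r15a alone, at -0.57 ± 0.20 (adjusted p = 0.986, limma, 2.24% of probes lower at this threshold and 0% after adjustment).

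Side by side after METH, all 7 genes had lower means in ML than in MNL, where 49.5% of probes had higher ones. Ccn1, mostly background, was at -0.03 and had the other sign in 3 of 21 alternatives. None passed (0 of 7, limma, where 7 probes were called lower, 0.0719%, and 5 higher, 0.0514%), while Dusp6, Dusp1 and Ppp1r15a were lower at an unadjusted p under 0.05 (1.37% of probes), and the methods' t-test called 0 (0.216% of probes). The MNL arrays are those that were set against SNL above. Dusp1 ran from 9.57 over 9.79 to 10.16 in ML, below all of MNL (10.20 to 10.84). Such a gap without overlap held for 0.144% of probes in this direction, and it closed with median scaling and in the deposited log2 table. Its log2 fold change was -0.63 ± 0.20 (unadjusted p = 0.00306, adjusted p = 0.806, limma). For Dusp6, 5 of 6 ML arrays lay below every MNL array, and the log2 fold change was -0.58 ± 0.16 (unadjusted p = 0.00109, adjusted p = 0.455, limma). With neighbouring striatum numbers as a block, Dusp6 passed (adjusted p = 0.0338, limma), though the labels do not tie neighbours to 1 rat. Ppp1r15a gave -0.29 ± 0.13, Errfi1 -0.18 ± 0.13, Gadd45g -0.16 ± 0.22 and Crem -0.10 ± 0.11. Fos was lower too, by -0.57 ± 0.18 (adjusted p = 0.894, limma). All choroid plexus markers tested (5 of 5, median 0.34) had higher means in ML, and the part of this list was not tested.

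After saline, the 7 genes showed no common direction between the sides, with 4 higher and 3 lower means in SL than in SNL (45.5% of all probes higher). In this comparison 0 of 7 genes passed (limma, where 8 probes were called higher, 0.0822%, and 0% lower), and Ppp1r15a was higher at an unadjusted p under 0.05 (2.19% of probes), with a log2 fold change of 0.33 ± 0.13 (adjusted p = 0.908). The methods' t-test called 0 (0.267% of probes). Ppp1r15a ran from 5.25 over 5.63 to 6.03 in SL, and 3 of 6 SL arrays lay above all of SNL. Dusp1 gave -0.01 ± 0.21 and Crem -0.00085 ± 0.12, with 95% intervals of -0.43 to 0.41 and -0.24 to 0.24. Gadd45g gave 0.34 ± 0.23. Without SC 6 and SNL 19 the values were 0.10 for Gadd45g and 0.25 for Ppp1r15a, and 0 genes were higher at an unadjusted p under 0.05. Summed microglia markers had a median of 2436 in SL (1918 to 3123) and 1986 in SNL (1140 to 2323), with 4 of 7 detected on every array. Oligodendrocyte markers had a median of 13950 in SL (12510 to 16670) and 17810 in SNL, with 3 of 7 genes lower at an unadjusted p under 0.05, and the part of either list was not tested.

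**Figure D4:**
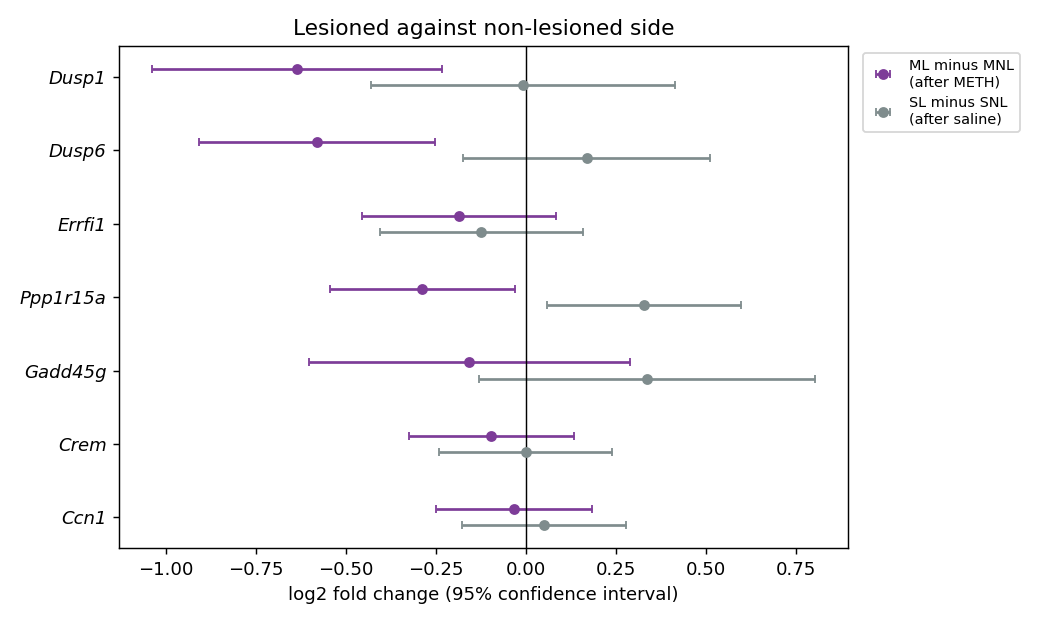
Log2 fold change of the lesioned over the non-lesioned side (horizontal axis) for each of the 7 genes (vertical axis) after METH (purple, 6 against 6 arrays) and after saline (grey, 6 against 5 arrays); bars are 95% confidence intervals from limma, not corrected for the number of genes. After METH the estimates of all 7 genes are below 0, with Dusp1 at -0.63, Dusp6 at -0.58 and Ccn1, mostly background, at -0.03, and after saline those of Dusp1 and Crem are within 0.01 of 0.

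The remaining comparisons share the SNL arrays with those above. In ML against SNL, Gadd45g gave 0.65 ± 0.23 and Crem 0.25 ± 0.12 (2 of 7 genes higher at an unadjusted p under 0.05 against 2.22% of probes, 0 after adjustment in limma, where 0.0925% were called higher and 0% lower). The values without SC 6 and SNL 19 were 0.41 and 0.15, and leaving out 1 array in turn gave 0 to 2 genes higher at the unadjusted threshold. In SNL against SC, the saline-treated hemiparkinsonian against the saline-treated control rats, Dusp1 gave -0.52 ± 0.23 (unadjusted p = 0.0291, 1 of 7 genes lower against 1.99% of probes, and 0 after adjustment in limma, where 0% were called). Here 4 of 5 SNL arrays lay below all SC arrays, and without SC 6 and SNL 19 the difference was -0.19. The methods' t-test called 0 of 7 genes in ML against SNL (0.319% of probes) and in SNL against SC (0.185%).

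Over the 31 arrays, 17 of the 21 pairs of genes correlated above 0, with a median r of 0.289 over arrays and 0.211 within groups. The arrays also differ in ribosomal protein signal, and its part in these correlations was not tested. Both MAP kinase phosphatases went together, Dusp1 with Dusp6 at r = 0.733, and 0.695 within groups. Gadd45g and Crem correlated at 0.618 and, within groups, at 0.399. Errfi1 and Gadd45g went apart within groups, at -0.61, as their relations to the ribosomal protein signal did. Within groups, Dusp1 correlated with Fos at 0.817, Dusp6 at 0.502 and Ppp1r15a at 0.489, where Gadd45g was at 0.242, Crem at 0.224 and Errfi1 at 0.0234.

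The genes most like each member over the 31 arrays differed in kind. Dusp1 was closest to Arc (r = 0.870), Egr1 (0.837) and Zfp189 (0.806), and the first 2 of these are activity-regulated genes of neurons. Dusp6 was closest to Cited2 (0.708), Rasl11a (0.700) and the clock gene Per2 (0.665), and Ppp1r15a to Slc25a25 (0.816), Per1 (0.744) and Tbp (0.724). Errfi1 was closest to Fkbp5 (0.804), a glucocorticoid-induced gene, Tfdp1 (0.782) and Vmp1 (0.778). Gadd45g was closest to Eif4ebp1 (0.85), Lamtor2 (0.817) and Polr1h (0.813). Crem was closest to Emd (0.760), Cdc42se1 (0.703) and Supt4h1 (0.701), and Ccn1, mostly background, to Acot13 (0.640), Txnrd1 (0.616) and Sgf29 (0.610). These correlations describe these arrays and carry no test.

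Other genes of the same pathways, taken from lists by function, rarely passed. Of the cAMP response list, 17 of 26 genes were tested, among them Per1, a clock gene with a CRE-driven acute response. Per1 was higher after METH in the mean over both kinds of dopamine-innervated striata, by 0.72 ± 0.16 (adjusted p = 0.0451, limma). It was the 1 gene of the 6 lists that passed in any comparison, and lay close to the threshold. In other limma fits 11 to 29 of all probes were called in this comparison, and whether Per1 was among them is not given here. It gave 0.72 ± 0.21 in MNL against SNL (adjusted p = 0.56), 0.72 ± 0.25 in MC against SC (adjusted p = 0.769), -0.13 ± 0.20 in ML against SL and -0.72 ± 0.20 in ML against MNL (adjusted p = 0.473). Its METH response on the lesioned side was below that of the non-lesioned side by -0.85 ± 0.29 (unadjusted p = 0.00647, adjusted p = 0.9997, limma). Sik1, a kinase that restrains CREB coactivators, gave 0.63 ± 0.18 in MNL against SNL and 0.05 ± 0.17 in ML against SL, with no adjusted p under the threshold. On the lesioned side the largest difference of the list was that of Atf2, 0.20 ± 0.13 (detected on 4 of 6 SL and 6 of 6 ML arrays), and after saline that of Pde10a, -0.37 ± 0.23 in SL against SNL.

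Of the list of other MAP kinase phosphatases and ERK feedback genes (11 of 23 tested), 8 had positive log2 fold changes in MNL against SNL, with a median of 0.12, 0 passing and 2 higher at an unadjusted p under 0.05, against 46.9% and 2.67% of all probes. The 2 were Spry2 and Rasa2, and Rasa2 was detected on 0 of 5 SNL arrays and 1 of 6 MNL arrays. Spry2, an inhibitor of receptor tyrosine kinase signalling, led with 0.37 ± 0.18 (adjusted p = 0.839, limma), and gave -0.41 ± 0.17 in ML against MNL. In control rats Dusp3 led with 0.53 ± 0.19 (adjusted p = 0.769), and on the lesioned side the list's largest difference was that of Rasa2, for which no value is given since it was detected on 0 of 6 SL and 2 of 6 ML arrays. After saline, Spred1 gave -0.26 ± 0.16 in SL against SNL. In the MAP kinase cascade itself (15 of 26 tested) the median in MNL against SNL was -0.081, and Map2k3, the kinase that activates p38, stood out with 0.41 ± 0.11 (unadjusted p = 0.000854, adjusted p = 0.339). Map2k3 gave 0.32 ± 0.13 in control rats and 0.37 ± 0.09 in both together (adjusted p = 0.0609), and -0.19 ± 0.11 in ML against MNL. Map2k6, the related p38 activator, gave -0.19 ± 0.08 in ML against SL, and Araf, detected on 4 of 6 SL and 3 of 5 SNL arrays, 0.21 ± 0.11 in SL against SNL.

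Of the integrated stress response and growth arrest list (17 of 29 tested), 12 had positive log2 fold changes in MNL against SNL and 12 in MC against SC, with medians of 0.052 and 0.061, and 2 genes each were higher at an unadjusted p under 0.05. Over all probes 46.9% and 45.4% were positive, and 2.67% and 3.63% were higher at that threshold. Ddit3 (CHOP), the stress factor that induces Ppp1r15a, led in both, with 0.34 ± 0.13 and 0.45 ± 0.15, and gave 0.40 ± 0.10 in both together (adjusted p = 0.0889, limma). It gave -0.0022 ± 0.12 in ML against SL and -0.25 ± 0.12 in ML against MNL. Trib2 gave -0.26 ± 0.18 on the lesioned side, and Gadd45gip1, a partner of Gadd45g, 0.29 ± 0.19 in SL against SNL. Of the EGF receptor family and its ligands, 3 of 20 genes with a probe could be tested. Cblb gave -0.29 ± 0.17 in MNL against SNL, Egf -0.30 ± 0.23 in MC against SC and -0.16 ± 0.18 in ML against SL, and Tgfa, a ligand of the receptor that Errfi1 blocks, -0.42 ± 0.17 in ML against MNL and -0.41 ± 0.18 in SL against SNL. Of the CCN family and matricellular list (7 of 22 tested), the largest difference in MNL against SNL was that of Spp1, detected on 0 of 6 MNL and 2 of 5 SNL arrays and so given no value. Sparc gave 0.35 ± 0.25 in MC against SC and 0.32 ± 0.21 in SL against SNL, and Ccn2 -0.29 ± 0.34 in ML against SL and -0.39 ± 0.34 in ML against MNL. No adjusted p of these genes was under 0.05 in limma.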

How the data were processed

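Total RNA of each striatum was labelled and hybridised by the authors to RatRef-12 BeadChips. The deposited signal intensity of each probe was summarised over beads by BeadStudio (version not given in the sources used here), without normalization between arrays, and the deposited detection p-value compares it with the negative controls of the array. A deposited log2 table, used as an alternative, equals the log2 of the signal (floor 1) less a constant per probe, within 0.1 for 100% of values on 30 arrays; how the constant was chosen is unknown, column medians ran from -0.123 to 0.38, and the column of ML 22 holds 1 minus the detection p and was not used.

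The first 4 of 22523 probes, where 2 columns hold the same signals or a moved column has no value, were left out. Gene names came from GEO's platform annotation, brought up to date by gene ID with the rat gene table for GRCr8: 13790 have 1 symbol, 0 several and 8729 none; 13749 matched by gene ID and 5 by accession, and 36 kept the given symbol. Signals were corrected with neqc (normexp, offset 16, quantile, log2), and the 9732 probes (7088 named genes) whose detection p was below 0.01 on 4 or more arrays were fitted with lmFit and eBayes in limma 3.58.1 (R 4.3.3; 25 residual and 4.85 prior degrees of freedom) as 6 group means, with Benjamini-Hochberg adjustment within a comparison. The number of arrays limits the precision. Figures were drawn with Python 3.11.15 and matplotlib 3.10.9.

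A gene with several probes is given by the brightest one. The rule for naming genes took the 7 genes in every comparison, the list genes past the threshold or else the largest change per list, the 3 genes most like each member, and Fos. List genes are given for the METH and side comparisons alone, and Tac1 was named after its values were seen. The members and lists were chosen with earlier results of these data known. Alternatives were median scaling, the deposited log2 table, all probes or those detected on every array, only the groups compared, the study's t-test, neighbouring striatum numbers as a block, and leaving out arrays. No scan date or chip number was used.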

Additional observations from a re-analysis of the deposited data

Results flagged for a closer look

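In 5 of the 42 sets of 1 gene and 1 group, and in 1 of the 6 sets of the ribosomal protein median, a single array lay apart from the rest of its group by a gap test that chance alone passes in about 1 of 20 groups. Dusp1 had such an array in 3 groups, always the highest: SC 6 at 11.03 (others 9.83 to 9.97), SNL 27 at 10.56 (others 9.26 to 9.58) and MNL 1 at 10.84 (others 10.20 to 10.44). Gadd45g was lowest in SNL 19, at 5.41 (others 6.52 to 6.68), the array where the ribosomal protein median was also low, at 10.49 (others 11.56 to 11.80). Crem was lowest in SL 4, at 6.83 (others 6.99 to 7.05).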

How the results depend on the processing

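The count of genes past the threshold was 0 of 7 in each of the 11 comparisons, and stayed 0 in 249 of 257 other fits. With neighbouring striatum numbers as a block (consensus correlation 0.361, 13 of 18 blocks of 2, neighbours of different treatment kept apart), Dusp6 passed in ML minus MNL, a count of 1 (limma, adjusted p = 0.0338, against up to 1 in its other alternatives). The study took both sides of hemiparkinsonian rats, but the labels do not say which striata share a rat. The true pairs could therefore not be fitted, and the block is only a guess at them. The t-test at the study's thresholds (1.7-fold and p under 0.025, unadjusted) called 2 in MNL minus SNL. Its calls over all probes, given below, are fewer than the paper reports for the comparisons it lists. Leaving out 1 array gave counts of 0 to 1 in MNL minus SNL and 0 to 1 for METH in dopamine-innervated striata. Of 1777 fitted values of single genes, 1768 kept their side of the threshold, and 9 passed only in an alternative. None was called with the settings of the report, and 18 of 77 values had the other sign in at least 1 alternative (84 of the 1777), Ccn1 in ML minus SL in 10 of 21 and Dusp1 in SL minus SNL in 8 of 21. Without SC 6 and SNL 19, chosen after seeing the data, no count changed. Over all probes, the calls numbered 11 in MNL minus SNL (7 to 13 in other limma fits, 33 by the t-test), 1 in MC minus SC (0 to 4, 17), 0 in ML minus SL (0 to 0, 11), 8 in SL minus SNL (3 to 9, 26), 12 in ML minus MNL (9 to 14, 21), 9 in ML minus SNL (6 to 13, 31), 0 in SNL minus SC (0 to 1, 18), 25 for METH in dopamine-innervated striata (11 to 29) and 0 for the lesioned against the non-lesioned response (0 to 2). The block gave 17 in SL minus SNL, 30 in ML minus MNL and 7 for that difference. Ppp1r15a and Ccn1 were not in the fit of probes detected on every array. Ccn1 and the other Crem probe are limited by signal near background, and intervals on the log2 scale reach 0.545 either side in MC minus SC, with 4 arrays a group.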
